A study of Mus musculus with 6 samples.

Results

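The mitochondrial genes of the annotation used for read counting were the 37 gene names with at least 1 exon row on the mitochondrial sequence, of 38334 gene names in the whole file. They were chosen by position alone, and no measured value entered the choice. The annotation was deposited with an RNA sequencing study of mTAL cells, an immortalised epithelial line microdissected from the thick ascending limb (TAL) of the mouse nephron. The cells were transduced with a lentiviral vector for GFP-tagged human uromodulin, either wild type or the C150S isoform, under a spleen focus-forming virus promoter, and 3 libraries per isoform were made at passage 3. Both groups carried the vector and the tag, and the construct was active in a line that, by the study's account, had lost TAL markers such as NKCC2 after immortalisation. The file holds positions of genes and no expression value, so no library depth, no level of a mitochondrial RNA and no comparison of wild type with C150S cells is given, and the identity of the cells could not be checked against markers.

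Mitochondria keep a small circular genome that is inherited apart from the chromosomes of the nucleus. It encodes core subunits of the respiratory chain and of ATP synthase, together with the rRNAs and tRNAs of the mitochondrial ribosome's own translation, while all other mitochondrial proteins are imported. Both strands are transcribed as long RNAs, and the tRNAs between the other genes are cut out, which releases the mRNAs and rRNAs. The thick ascending limb reabsorbs salt against a gradient and is rich in mitochondria.

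The 37 genes had 37 gene identifiers and 76 rows, made of 37 exon rows, 13 CDS rows, 13 start codon rows and 13 stop codon rows. Every gene was a single exon. Of the 37 genes, 28 lay on the plus strand and 9 on the minus strand. In GENCODE release M21, an annotation of the same assembly (mm10, also called GRCm38), all 37 had the same exon positions and strand. Sequences below were read from the transcripts of that release, in which 0 bases disagreed between overlapping genes.

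The 13 genes with CDS rows, which encode proteins, held 11403 exon bases, or 73.8% of the exon bases of the 37 genes. Their lengths ran from 204 bases in mt-Atp8 to 1824 bases in mt-Nd5, with a median of 784. Complex I, the NADH dehydrogenase through which electrons enter the chain, had 7 mitochondrial genes of 6361 bases in all. These were mt-Nd1 (chrM:2751-3707), mt-Nd2 (chrM:3914-4951), mt-Nd3 (chrM:9459-9806), mt-Nd4l (chrM:9877-10173), mt-Nd4 (chrM:10167-11544) and mt-Nd5 (chrM:11742-13565) on the plus strand, and mt-Nd6 (chrM:13552-14070) on the minus strand. mt-Nd6 was the only protein-coding gene on the minus strand. Complex III, which passes electrons from ubiquinol to cytochrome c, had 1 mitochondrial gene, mt-Cytb (chrM:14145-15288), of 1144 bases. Complex IV, cytochrome c oxidase, had 3 genes of 3013 bases in all, namely mt-Co1 (chrM:5328-6872), mt-Co2 (chrM:7013-7696) and mt-Co3 (chrM:8607-9390). ATP synthase, which makes ATP from the proton gradient, had mt-Atp8 (chrM:7766-7969) and mt-Atp6 (chrM:7927-8607), of 885 bases together.

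The 24 genes without CDS rows held 4038 exon bases, with a median length of 69. The rRNA of the small ribosomal subunit, mt-Rnr1 (chrM:70-1024), had 955 bases and that of the large subunit, mt-Rnr2 (chrM:1094-2675), had 1582. The remaining 22 genes were tRNAs, 14 on the plus strand and 8 on the minus strand. Their median length was 68.5 bases, from 59 in mt-Ts2 (chrM:11613-11671) to 75 in mt-Tl1 (chrM:2676-2750). Thus all 22 tRNA genes were shorter than a sequencing read of the study, whose length is used below as the length of a window.

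**Figure D1:**
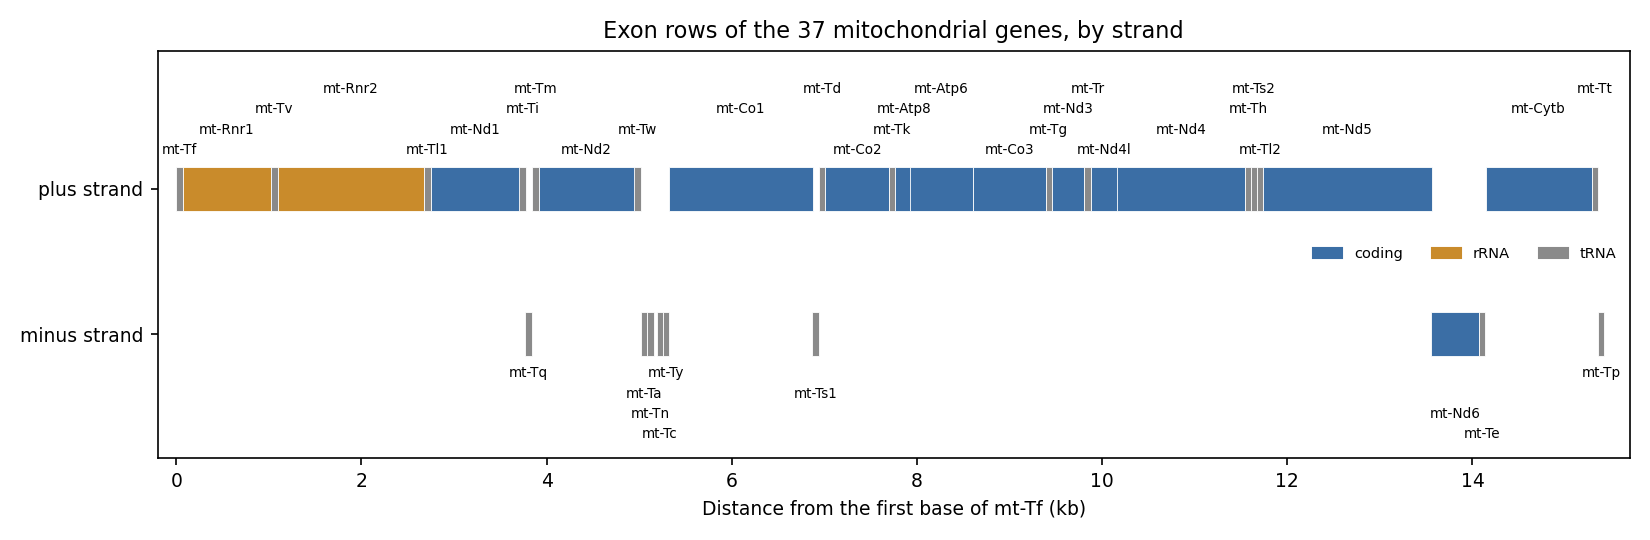
Exon rows of the 37 mitochondrial genes drawn to scale. The x axis is the distance from the first base of mt-Tf in kb, the upper and lower rows are the plus and minus strands, and colours mark protein-coding, rRNA and tRNA genes. 28 genes lie on the plus strand and 9 on the minus strand, where mt-Nd6 is the only coding gene.

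The genes followed each other with almost no space. From base 1, the first base of the phenylalanine tRNA mt-Tf (chrM:1-68), to base 15422, the last base of the proline tRNA mt-Tp (chrM:15356-15422), exons covered 15365 bases (99.6%). The 57 bases (0.37%) that no gene covered fell into 15 gaps. Of the 36 pairs of neighbours, 12 abutted with 0 bases between, 9 shared bases and 15 had bases between. The gap was 1 base in 8 of these 15 pairs and 1 to 5 bases in 14. The median spacing over all pairs was 0 bases. The exception was the gap of 32 bases between the asparagine tRNA mt-Tn (chrM:5089-5159) and the cysteine tRNA mt-Tc (chrM:5192-5257), at chrM:5160-5191. In vertebrates the origin of replication of the light strand lies between these tRNA genes. The next widest gap had 5 bases (chrM:14140-14144), between the glutamate tRNA mt-Te (chrM:14071-14139) on the minus strand and mt-Cytb on the plus strand. The control region, the non-coding stretch that holds the promoters, lies beyond mt-Tp and was not analysed here.

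**Figure D2:**
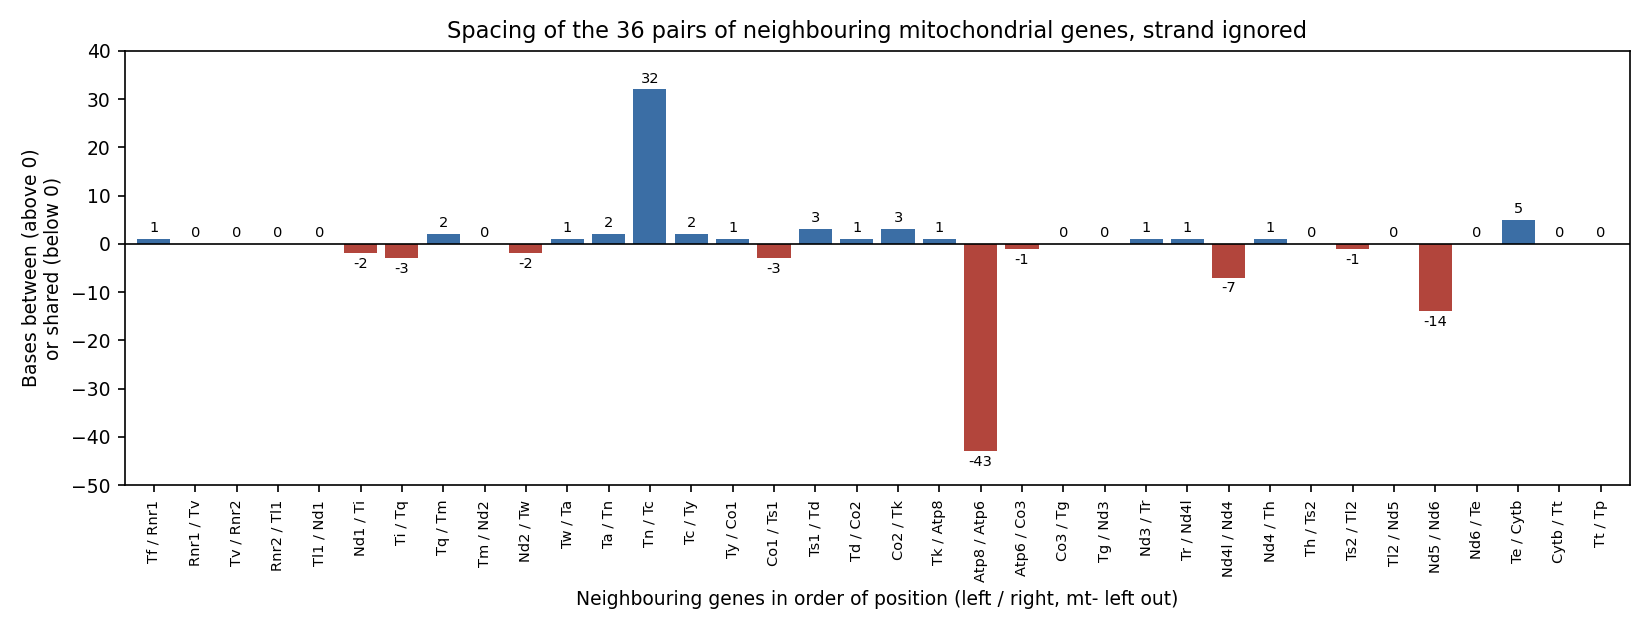
Spacing of the 36 pairs of neighbouring genes. Bars above 0 give the bases between the exons of a pair, bars below 0 the bases they share, and pairs at 0 abut. The widest gap is 32 bases between mt-Tn and mt-Tc and the longest overlap 43 bases between mt-Atp8 and mt-Atp6.

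By strand, plus-strand genes covered 14317 bases (92.8% of the 15422) and minus-strand genes 1068 bases (6.93%). The order of the genes changed strand at 9 of the 36 junctions, which made 10 runs of genes on a strand. The longest run held 15 genes on the plus strand, from the aspartate tRNA mt-Td (chrM:6942-7011) to mt-Nd5. The longest minus-strand run held 4 tRNA genes, from the alanine tRNA mt-Ta (chrM:5018-5086) to the tyrosine tRNA mt-Ty (chrM:5260-5326). The minus-strand tRNA mt-Te followed mt-Nd6 on the chromosome with 0 bases between, and since both are read from the minus strand, it precedes mt-Nd6 in the RNA. The other minus-strand tRNA genes were the glutamine tRNA mt-Tq (chrM:3772-3842), the serine tRNA mt-Ts1 (chrM:6870-6938) and mt-Tp, each alone between plus-strand genes or at the end of the order. The plus-strand neighbours at these changes included the methionine tRNA mt-Tm (chrM:3845-3913) and the threonine tRNA mt-Tt (chrM:15289-15355).

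tRNA genes stood at most junctions. Of the 36 junctions, 18 joined a protein-coding gene to a tRNA gene, 4 joined an rRNA to a tRNA gene, 10 joined a pair of tRNA genes and 4 joined a pair of protein-coding genes. Among the 15 protein-coding and rRNA genes, 8 had a tRNA gene next to them on both sides, with strand ignored. A further 6 had a tRNA gene on 1 side only. mt-Atp6, between mt-Atp8 and mt-Co3, had none. The 22 tRNA genes formed 12 clusters, of which 7 were single genes and the largest held 5, from the tryptophan tRNA mt-Tw (chrM:4950-5016) to mt-Ty.

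Shared bases were few but fell at the ends of many genes. In all, 76 bases, 0.495% of the covered bases, lay in exons of 2 genes, 56 of them on the same strand and 20 on opposite strands. A base shared with another gene was found in 16 of the 37 genes (43.2%), against 18.1% of all 38334 gene names in the file. On the same strand it was 11 of 37 (29.7%), against 4.31% of all gene names. These 16 genes were 10 protein-coding genes and 6 tRNA genes. No rRNA gene shared a base. The shares are descriptions of 1 annotation, without replicates or a test.

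All 4 junctions of a pair of protein-coding genes were overlaps, and their sequences are shown because start or stop codons lie within the shared bases or span them. The longest was that of mt-Atp8 and mt-Atp6 on the plus strand, with 43 bases (chrM:7927-7969), which were 21.1% of mt-Atp8 and 6.31% of mt-Atp6. Of these, 40 bases lay in the CDS rows of both genes. In the sequence, the capitals at the left end are the start codon of mt-Atp6 and those at the right end the stop codon of mt-Atp8.
mt-Atp8/mt-Atp6: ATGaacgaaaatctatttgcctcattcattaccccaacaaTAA
The codons of mt-Atp6 began 2 bases out of step with those of mt-Atp8, so the same letters were read in different frames. mt-Nd4l and mt-Nd4 shared 7 bases (chrM:10167-10173), 4 of them in both CDS rows, again 2 bases out of step. The 7 shared bases, in capitals, open with the start codon of mt-Nd4 and close with the stop codon of mt-Nd4l.
mt-Nd4l/mt-Nd4: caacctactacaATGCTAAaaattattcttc
mt-Atp6 and mt-Co3 shared the single base chrM:8607, which is the last base of the stop codon of mt-Atp6 and the first base of the start codon of mt-Co3. The capitals hold both codons.
mt-Atp6/mt-Co3: catgataatacaTAATGacccaccaaact
mt-Nd5 and mt-Nd6 met tail to tail on opposite strands and shared 14 bases (chrM:13552-13565), 8 of them in both CDS rows. Here the same stretch is given on the plus and then on the minus strand, and each strand ends in a stop codon, in capitals, that of mt-Nd5 and that of mt-Nd6.
mt-Nd5/mt-Nd6: ttaatctcgagTAA
mt-Nd5/mt-Nd6 minus: ttactcgagatTAA

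The other 5 overlaps involved tRNA genes and were 1 to 3 bases long. The last 2 bases of mt-Nd1 (chrM:3706-3707) were also the first bases of the isoleucine tRNA mt-Ti (chrM:3706-3774). Likewise the last 2 bases of mt-Nd2 (chrM:4950-4951) opened mt-Tw. In both sequences the stop codon is in capitals, and 1 of its 3 bases lies outside the tRNA gene.
mt-Nd1/mt-Ti: ccaccatacataTAGaaatatgtctga
mt-Nd2/mt-Tw: caactaattaccTAGaagtttaggata
mt-Co1 and mt-Ts1 shared 3 bases on opposite strands (chrM:6870-6872), the whole stop codon of mt-Co1, in capitals below.
mt-Co1/mt-Ts1: gtaaaagtaaaaTAAgaaaggaaggaa
The remaining overlaps joined tRNA genes. mt-Ti and mt-Tq shared 3 bases on opposite strands (chrM:3772-3774), and mt-Ts2 and the leucine tRNA mt-Tl2 (chrM:11671-11741) shared 1 base on the same strand (chrM:11671). The shared bases are in capitals.
mt-Ti/mt-Tq: cctcttatttCTAggacaatagg
mt-Ts2/mt-Tl2: tggctttcttActtttatagg

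The stop codon rows did not show which genes end in a stop codon. All 13 protein-coding genes had a stop codon row of 3 bases, as did all 51653 coding transcripts of the file. Read in frame from the first base, 10 of the 13 genes ended in a stop codon, TAA in 8 and TAG in 2 (mt-Nd1 and mt-Nd2). The other 3 genes, mt-Co3, mt-Nd4 and mt-Cytb, ended in a single T after the last whole codon. In these mRNAs the poly(A) tail is known to complete the stop codon UAA. The last 16 bases of each are shown, with the left-over base in capitals.
mt-Co3 end: tattgatgaggatctT
mt-Nd4 end: acaggcctgacaataT
mt-Cytb end: ctaaaattatatccaT
The exons of these genes, of 784, 1378 and 1144 bases, each held whole codons and 1 base more. Their stop codon rows covered the last 3 exon bases, CTT in mt-Co3, TAT in mt-Nd4 and CAT in mt-Cytb, of which none is a stop codon. Their CDS rows of 781, 1375 and 1141 bases were therefore cut short by 3 bases, and 1 base was left over in each. A CDS that was no whole number of codons was thus found in 3 of 13 genes. In the whole file it was found in 13.0% of the 51653 coding transcripts with a complete stop codon row. GENCODE release M21 gave these 3 genes no stop codon row and let the CDS run to the end of the exon.

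For 5 genes, fewer than 3 bases of the stop codon row lay outside other genes of the same strand. The number was 0 in mt-Atp8 and mt-Nd4l, whose stop codons lie within mt-Atp6 and mt-Nd4. It was 1 in mt-Nd1 and mt-Nd2 and 2 in mt-Atp6.

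The first codons differed among the 13 genes. ATG opened 9 of them, GTG opened mt-Nd1, ATA opened mt-Nd2, ATT opened mt-Nd3 and ATC opened mt-Nd5. Mitochondria of vertebrates start proteins with methionine at several of these codons. All 13 had a start codon row in the deposited file, whereas GENCODE release M21 gave none to the 4 genes that open with another codon than ATG.

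The reading frames followed the vertebrate mitochondrial code, in which TGA encodes tryptophan, ATA encodes methionine and AGA and AGG are no arginine codons. Under this code the 13 frames held 3790 codons before the stop and 0 stop codons inside. TGA was used 96 times and TGG 7 times, so that TGA made up 93.2% of the tryptophan codons. It lay inside 12 of the 13 genes, all but mt-Nd4l, and its first place ran from codon 6 in mt-Co1 to codon 86 in mt-Nd1 and mt-Nd6. Read with the standard code, these 12 frames would stop at that codon. ATA was used 217 times and ATG 30 times, or 87.9% of the methionine codons, and AGA and AGG were used 0 times.

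The strand of a gene went with its base composition. On its own strand, the strand with the letters of the RNA, each of the 12 plus-strand protein-coding genes had less G than C. G made up 5.88% of the bases in mt-Atp8 to 16.1% in mt-Co1, with a median of 11%, and C made up at least 22.1%. mt-Nd6 held 28.1% G and 5.97% C, the highest G and the lowest C of the 13 protein-coding genes. The rRNA genes had 16.1% and 16.2% G and 19.7% and 19.2% C. Among the tRNA genes, 8 of 8 on the minus strand and 3 of 14 on the plus strand had more G than C. The G shares of the tRNA genes overlapped between the strands, from 7.14% to 21.3% on the plus strand and from 17.9% to 29.9% on the minus strand.

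**Figure D3:**
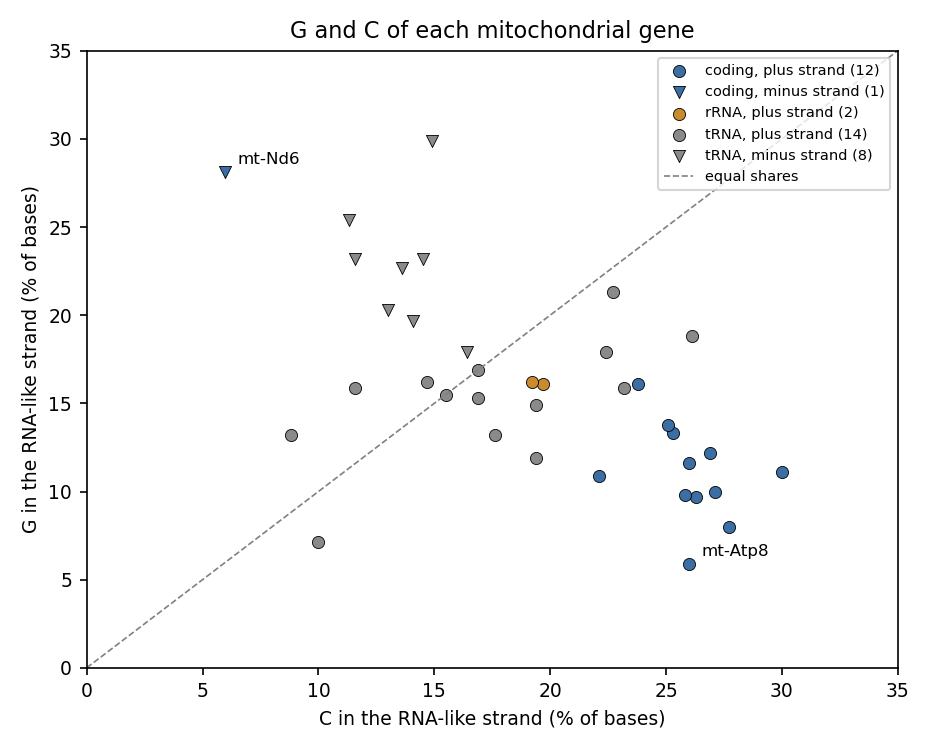
Share of C (x axis) and of G (y axis) in the bases of each of the 37 genes, on the strand with the letters of the RNA. Circles are plus-strand and triangles minus-strand genes, colours mark the class, and the dashed line marks equal shares. The 12 plus-strand protein-coding genes lie below the line and mt-Nd6, with 28.1% G and 5.97% C, above it.

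At the last positions of the codons, too, C exceeded G in the plus-strand genes and G exceeded C in mt-Nd6. Over the 12 plus-strand genes, these positions held 46.2% A, 27.7% C, 22.9% T and 3.26% G, and G ran from 1.53% in mt-Co3 to 5.97% in mt-Atp8. In mt-Nd6 they held 50.6% T, 25.6% A, 22.7% G and 1.16% C.

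The 22 tRNA genes covered 20 amino acids, with pairs of genes for leucine (mt-Tl1 and mt-Tl2) and serine (mt-Ts1 and mt-Ts2). A tRNA folds into an acceptor stem, which carries the amino acid, and arms that include the anticodon loop. With the last base left unpaired, 16 genes had pairs at all 7 positions of the acceptor stem and 5 had pairs at 6, counting G with T as a pair. The histidine tRNA mt-Th (chrM:11546-11612) had 1 pair, and 6 when the last 2 bases were left unpaired. CCA, the end to which the amino acid is joined, was the last triplet of 1 gene, mt-Ty. It is added to mitochondrial tRNAs after transcription. The anticodon was placed by a search for the best stem of 5 pairs around a loop of 7 bases, with the first anticodon base between bases 18 and 41 of the gene. Each pair scored 1, and a T directly before the anticodon scored 1 more but was not required, and mt-Tm has a C there. In 20 of 22 genes a single place scored best, and it held an anticodon for the named amino acid. In the lysine tRNA mt-Tk (chrM:7700-7764), TTT, which reads lysine codons, and TAA, which does not, scored equally. In mt-Tt, GGT and TGT, which both read threonine codons, scored equally. The shortest and longest tRNA genes and those next to the results above are given, with the anticodon in capitals. mt-Tf and mt-Tp bound the order of genes, mt-Tw reads TGA, and mt-Tm reads the start codon.
mt-Ts2: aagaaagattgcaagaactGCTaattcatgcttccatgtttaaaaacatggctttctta
mt-Tl1: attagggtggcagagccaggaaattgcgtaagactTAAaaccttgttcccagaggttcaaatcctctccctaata
mt-Tf: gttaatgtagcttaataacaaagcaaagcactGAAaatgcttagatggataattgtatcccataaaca
mt-Tw: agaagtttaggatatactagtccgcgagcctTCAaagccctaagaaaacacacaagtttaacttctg
mt-Tm: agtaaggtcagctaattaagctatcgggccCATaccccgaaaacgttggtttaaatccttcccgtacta
mt-Tp: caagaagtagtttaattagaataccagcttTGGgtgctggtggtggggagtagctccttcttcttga
In mt-Ts2, a serine tRNA known to lack the D arm, the anticodon began at base 20 of the gene, the lowest place among the 22 genes. Its anticodon stem paired at 4 of 5 positions, as in mt-Tl1 and mt-Tt, and that of mt-Tw at 3, whereas the other 18 genes paired at all 5. mt-Tp is written on the minus strand.

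The counting rule of the study bears on which reads are assigned to a gene. In union mode, htseq-count assigns a read that touches exons of a single gene and sets aside a read that touches several. Of the 15322 windows of read length between bases 1 and 15422, 12323 (80.4%) touched 1 gene, 2999 (19.6%) touched 2 or more and 0 touched none, with strand ignored. Windows that touched only 1 protein-coding gene numbered 9980 (65.1%). The libraries were paired, and a fragment spans more bases than a single read. The windows run across gene borders, as reads of an uncut RNA would. Reads of RNAs already cut at these borders were not modelled, so the shares of windows are not shares of reads.

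The share of a gene's own windows that touched no other gene differed from gene to gene. It was 20.4% in mt-Atp8 (62 of 304 windows), 48.1% in mt-Nd4l, 55.6% in mt-Nd3, 65.4% in mt-Nd6 and 68.8% in mt-Atp6. It was 75% in mt-Co2, 77.3% in mt-Co3, 80.9% in mt-Nd1 and 82.2% in mt-Nd2. It was 84.3% in mt-Cytb, 86.1% in mt-Nd4, 87.7% in mt-Co1 and 88.9% in mt-Nd5, and 83.6% and 88.1% in mt-Rnr1 and mt-Rnr2. The shortest protein-coding genes thus had the lowest shares. Of the 22 tRNA genes, 1 had any such window between bases 1 and 15422, mt-Tn with 5 of 171 (2.92%), and these ran into the gap of 32 bases beside it. mt-Tf and mt-Tp stand at the ends of this stretch, where windows were cut off. With gene-free bases added beyond both ends, mt-Tf had 69 such windows (41.1%) and mt-Tp 67 (40.1%), so that 3 tRNA genes had any. For the other 19 tRNA genes, every window of read length that touched the gene touched a neighbour too, with or without these bases.

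With strand used, 12 of 22 tRNA genes had a window of their own. mt-Tq, mt-Ts1 and mt-Tp, which had no minus-strand neighbour within a window, reached 100%. The share rose from 65.4% to 83.8% in mt-Nd6 and from 87.7% to 98.1% in mt-Co1, and stayed at 20.4% in mt-Atp8, whose neighbours lie on the same strand. Unless told otherwise, htseq-count counts by strand, and no strand option is among the parameters quoted for the study. The libraries were made with a TruSeq RNA sample prep kit, and whether they kept strand was not checked here. The shares with strand used apply to reads only if the libraries kept strand.

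**Figure D4:**
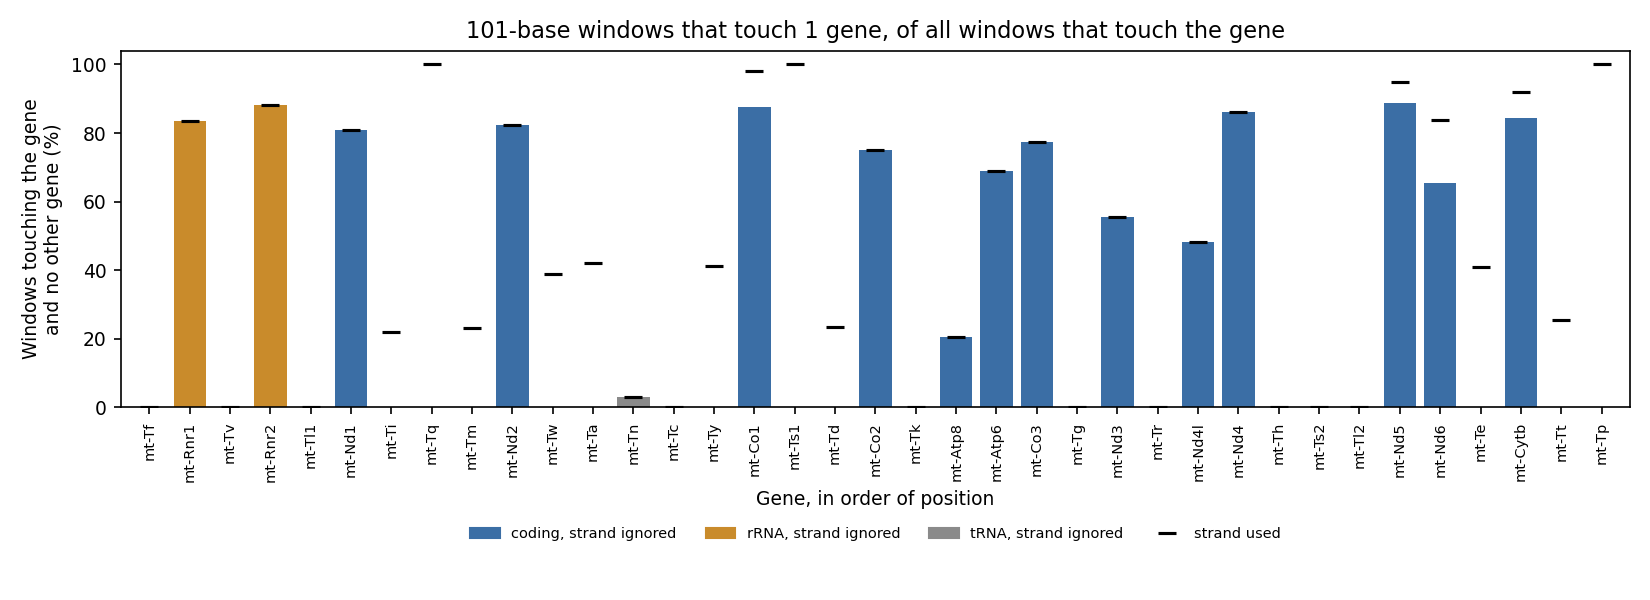
Share of the windows of read length touching each gene that touch no other gene, in percent, for the 37 genes in order of position. Bars ignore strand and are coloured by class, and the short black lines give the share with strand used. Protein-coding genes run from 20.4% in mt-Atp8 to 88.9% in mt-Nd5, and 21 of the 22 tRNA genes are at 0 with strand ignored and windows kept between bases 1 and 15422.

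Some mitochondrial genes had exact copies in the nucleus, where a read would match as well. Of the 15 genes long enough, 8 shared a stretch of read length with at least 1 of 10 nuclear genes in GENCODE release M21, whose 141730 transcripts were searched. All 10 were annotated there as unprocessed pseudogenes, copies of DNA rather than of a spliced RNA. Parts of the nuclear genome outside annotated transcripts were not searched. The share of distinct stretches found in the nucleus was 99.9% in mt-Co3 (683 of 684), 99.5% in mt-Co2 (581 of 584) and 99.5% in mt-Atp6 (578 of 581). It was 98.5% in mt-Nd4l, 97.6% in mt-Nd3, 60.7% in mt-Nd4, 30.7% in mt-Co1 and 3.09% in mt-Nd2. These 8 genes thus ranged from nearly whole copies to a short piece. No stretch of mt-Rnr1, mt-Rnr2, mt-Nd1, mt-Atp8, mt-Nd5, mt-Nd6 or mt-Cytb was found in these transcripts. mt-Atp8 lies between mt-Co2 and mt-Atp6, and any bases between their nuclear copies that no transcript covers were not searched.

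Of the 10 nuclear genes, 7 lay within 4663 bases of chromosome 1 (chr1:24611535-24616197) on the minus strand, and 3 on chromosome 2 (chr2:22587291-22590533), also on the minus strand. The 5 with most stretches were Gm28439, which held 876 bases of mt-Nd4 in a single exact run, Gm28437 with a run of 783 bases of mt-Co3, Gm28661 with 681 of mt-Co2, Gm10925 with 678 of mt-Atp6 and Gm29216 with 479 of mt-Co1. The chromosome 1 copies stood in mitochondrial order. From the first base of the run in mt-Co1, the runs of mt-Co2, mt-Atp6 and mt-Co3 began 619, 1533 and 2213 bases further on, in the mitochondrial sequence and on chromosome 1 alike. The run of mt-Nd4l began after 3483 bases in the mitochondrial sequence and after 3484 on chromosome 1, a difference of 1 base.

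Only 4 of the 10 nuclear genes were in the deposited annotation, and they are named here after their values were seen. Gm10222 (chr1:24612404-24612700) held 98.5% of the stretches of mt-Nd4l and had CDS rows in the deposited file. Gm13341, Gm13340 and Gm13339, on chromosome 2, held 14.7% of those of mt-Co2, 5.33% of those of mt-Co1 and 3.09% of those of mt-Nd2. A read that aligns equally well in both places has no unique position. Reads were aligned to the genome, so this holds also for copies that the deposited annotation does not list.

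**Figure D5:**
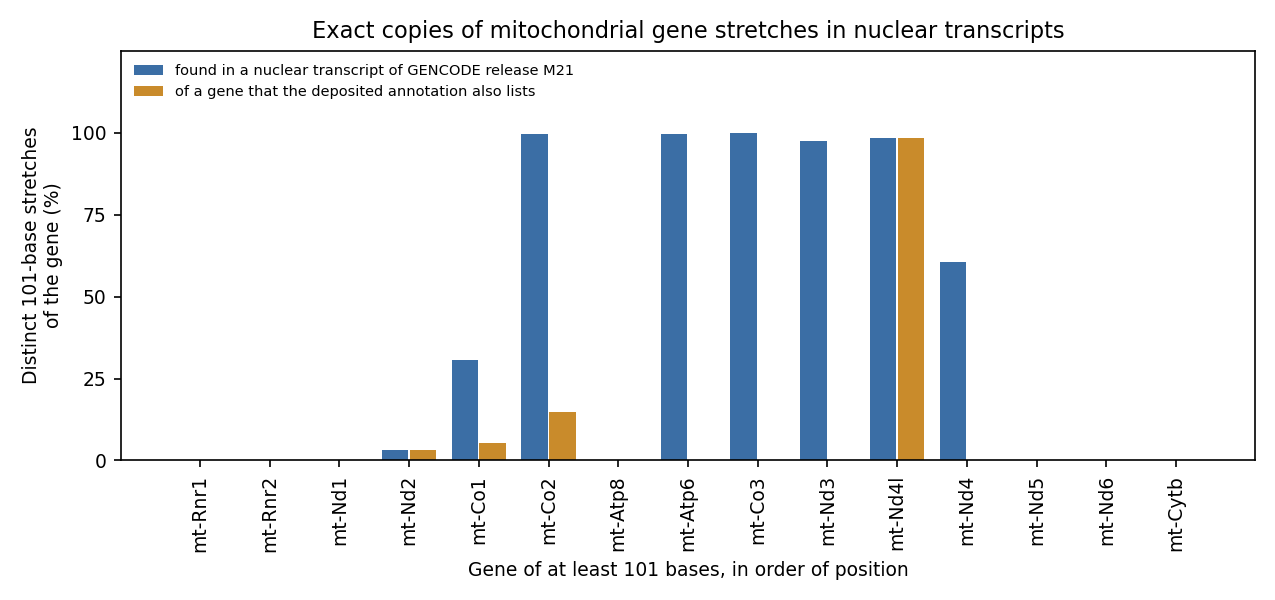
Share of the distinct stretches of read length of each of the 15 genes long enough that occurred in a nuclear transcript, in percent. Blue bars count all nuclear transcripts of GENCODE release M21 and orange bars those of genes also in the deposited annotation. mt-Co2, mt-Atp6, mt-Co3, mt-Nd3 and mt-Nd4l are at 97.6% or more and only mt-Nd4l has an orange bar of that height, 98.5%.

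Set beside the 21 nuclear chromosomes of the same file, the mitochondrial sequence had other values in each measure taken, with no test. Exons covered 99.6% of it, against 0.34% to 5.89% of the nuclear chromosomes from their first to their last exon base. The median spacing of neighbours was 0 bases, against 6595.5 to 122268. All of its genes (100%) had a single exon block, against 25.2% to 79.6% of the gene names of a nuclear chromosome. The median exon length of a gene was 71 bases, against 684 to 2037. Of its genes 75.7% lay on the plus strand, against 35.4% to 53.6%.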

How the data were processed

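RNA of 6 libraries from mTAL cells, 3 per group, was sequenced with paired reads of 101 bases. According to the methods and the submitters' processing notes, the authors used CASAVA 1.8, aligned reads with STAR 2.3.0 to mm10 with an added human UMOD sequence, and counted them with HTSeq (htseq-count, exon rows, gene name, union mode) before limma. Only the annotation they deposited for counting was analysed here, and its columns of start, end and frame were taken unchanged. Counts of reads were not analysed here.

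Exon rows on the mitochondrial sequence were grouped by gene name and sorted by start. The length of that sequence was not given in the sources used here, so its last exon base was taken as the end. Sequences came from GENCODE release M21 transcripts. Each stretch of 101 bases was searched in both orientations. Codons were read with the vertebrate mitochondrial code. The range of the anticodon search was widened after its first results were seen. Spacing, shared bases, uncovered bases, windows and codons were tested on simulated data with strand ignored, and 200 of 200 layouts were recovered. The counts by strand and the windows with gene-free ends were not tested in this way. Simulated overlaps were shorter than that of mt-Atp8 and mt-Atp6. Genes were named by a written rule (all protein-coding and rRNA genes, tRNA genes at overlaps, strand changes, gaps of 10 bases or more or extremes of length, and the 5 nuclear genes with most stretches), and the other tRNA genes were given by range and count, except mt-Tf, mt-Th and mt-Tk, which were named after their values were seen. Members and lists were chosen with earlier results of these data known. Python 3.11.15, Biopython 1.88 and matplotlib 3.10.9 were used.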

Additional observations from a re-analysis of the deposited data

How the results depend on the processing

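Of 23 alternatives, 16 left a count within 1.5 times its main value and 7 did not. With CDS rows in place of exon rows for protein-coding genes, 5 neighbour pairs shared bases in place of 9, since stop codons are left out of CDS rows. On the plus strand alone 1105 bases, and on the minus strand alone 14354, were covered by no gene, against 57 for both together. Protein-coding genes without a complete stop codon numbered 0 by the deposited rows, 3 by the bases read in frame and 3 by the rows of GENCODE release M21. Genes with at least 1 window of their own numbered 16 as reported, 27 when strand was used and 37 when windows were 50 bases long. With gene-free bases added beyond both ends, an alternative chosen after seeing the data, they numbered 18, and mt-Tf (41.1%) and mt-Tp (40.1%) then had such windows. Settings that need the length of the mitochondrial sequence, its full length and its ends joined as a circle, were not run. No paired analysis was possible because an annotation was described and nothing was tested between groups. The file has no depth, so no precision can be given for any library, and where mitochondrial RNAs begin and end in these cells was not measured.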

Other observations

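Shorter stretches were shared with more nuclear genes. At 50 bases, 10 of the mitochondrial genes matched 15 nuclear genes of GENCODE release M21, in place of 8 and 10 at read length. The genes added were mt-Nd5, which encodes the largest of the complex I subunits listed above and matched the processed pseudogenes Gm4076 (73 stretches) and Gm11407 (64 stretches), and mt-Rnr2, which matched Gm20594 (16 stretches), a gene annotated as protein coding. These nuclear genes were named after their values were seen.

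Windows of 200 bases left 0 of 22 tRNA genes and 12 of 13 protein-coding genes with a window of their own. mt-Atp8, of 204 bases, was the gene without any. In mt-Nd4l the share fell to 18.5% and in mt-Nd3 to 27.4%, while mt-Nd5 kept 79.6%.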
